A study of Homo sapiens with 6 samples.

Results

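The genes of the granin and peptide hormone system were examined in SH-SY5Y cells after depletion of PSF, an RNA-binding protein of the paraspeckle that is encoded by SFPQ. The list was fixed by gene symbol and held 10 genes: the granins CHGA, CHGB, SCG2 and SCG3, the convertase partners SCG5 and PCSK1N, the peptide precursors NPY, GAL and VIP, and the convertase PCSK2. Of these, 9 were analysed, out of 21301 genes in the table, and all 9 passed the filter on low counts. PCSK2 was not analysed here. SH-SY5Y is a cloned human neuroblastoma subline, so every library came from the same cell line. Cells received either siControl or siPSF at 10 nM, and RNA was collected 72 h later as 3 libraries per group, which the study calls biological triplicates. A single siRNA sequence against PSF was used. The question was how the transcripts of this secretory system stood after PSF silencing.

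Endocrine cells and many neurons store peptides in dense-core granules. Granins are acidic proteins that aggregate in the late Golgi and help to load these granules, and most are themselves cut into smaller peptides. Peptide precursors are cleaved after pairs of basic amino acids by the prohormone convertases PCSK1 and PCSK2, carboxypeptidase E (CPE) then removes the basic residues, and the amidating enzyme PAM finishes many of the peptides. The 7B2 protein, encoded by SCG5, is a chaperone and inhibitor of PCSK2, and proSAAS, encoded by PCSK1N, is an inhibitor of PCSK1. Sympathetic neurons and neuroblastoma cells are known to make chromogranins, NPY, galanin and VIP.

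The coding sequence of NPY and the first 80 codons of that of GAL are shown because both precursors carry the signature that the convertases read, and because NPY was the gene with the largest change in the list. The sequences are those of the MANE Select transcripts of GENCODE release 44 on GRCh38, joined across coding exons, with runs of at least 2 neighbouring codons for lysine or arginine in capitals.
NPY: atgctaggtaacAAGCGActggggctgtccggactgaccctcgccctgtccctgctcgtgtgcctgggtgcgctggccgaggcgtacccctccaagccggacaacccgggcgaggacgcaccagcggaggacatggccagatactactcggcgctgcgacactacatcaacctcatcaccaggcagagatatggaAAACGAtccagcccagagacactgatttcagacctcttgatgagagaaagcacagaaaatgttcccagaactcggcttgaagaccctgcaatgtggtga
GAL: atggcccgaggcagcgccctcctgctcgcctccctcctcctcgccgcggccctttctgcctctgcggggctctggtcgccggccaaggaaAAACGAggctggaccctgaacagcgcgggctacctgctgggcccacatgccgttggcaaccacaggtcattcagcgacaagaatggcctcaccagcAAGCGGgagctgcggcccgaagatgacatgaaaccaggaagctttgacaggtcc
The NPY coding sequence spans chr7:24285241-24291687 on the plus strand in 3 coding exons and has 97 codons before the stop, with basic pairs starting at codons 5 and 66. The first lies in the signal peptide. The pair at codon 66 follows a glycine codon, the classical arrangement of a peptide that is cut and then amidated. The GAL coding sequence spans chr11:68684924-68690987 on the plus strand in 5 coding exons, with pairs at codons 31 and 63 on either side of the galanin stretch. The same count gave 6 basic runs in the 170 codons of VIP, 10 in the 457 codons of CHGA and 15 in the 677 codons of CHGB. In SCG2 there were 9 runs in 617 codons, in SCG3 there were 7 in 468, in SCG5 there were 3 in 212 and in PCSK1N there were 6 in 260. These runs are a feature of the letters, and which of them are cut was not measured.

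The stretches of 120 bases upstream of the start site are shown for the gene that fell, the gene that rose and 2 genes that held motifs, taken from RefSeq on GRCh38.p14 and written on the strand of the gene. Capitals mark the core of the cyclic AMP response element (TGACG or its reverse complement CGTCA), which overlap in the full palindrome TGACGTCA, and the TATA box TATAAA.
NPY: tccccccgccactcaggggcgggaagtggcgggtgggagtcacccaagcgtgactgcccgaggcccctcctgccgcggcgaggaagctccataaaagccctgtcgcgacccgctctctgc
PCSK1N: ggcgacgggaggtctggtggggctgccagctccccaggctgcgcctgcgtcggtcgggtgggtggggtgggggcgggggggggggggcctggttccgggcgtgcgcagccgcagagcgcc
CHGA: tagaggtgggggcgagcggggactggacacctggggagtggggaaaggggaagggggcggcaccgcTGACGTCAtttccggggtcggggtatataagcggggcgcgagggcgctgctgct
VIP: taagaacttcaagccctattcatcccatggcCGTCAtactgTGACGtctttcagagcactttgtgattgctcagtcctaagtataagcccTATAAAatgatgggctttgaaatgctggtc
They lie at chr7:24284070-24284189 (plus strand), chrX:48835611-48835730 (minus strand), chr14:92923030-92923149 (plus strand) and chr6:152750677-152750796 (plus strand). In CHGA the start site used lies downstream of the outermost start of the gene in RefSeq. Promoter entries were found for 7 of the 10 genes, and the motifs were searched over 250 bases upstream. CHGA held the full palindrome 54 bases before the start site, which 1.65% of 35116 promoters hold on either strand. VIP held cores starting 89 and 79 bases before its start and a TATA box 30 bases before it. The letters TATAAA also occurred at 147 and 157 bases, outside the stretch shown. SCG5 held a core 17 bases before its start, and PCSK2, with 2 start sites, held cores 157 and 96 bases before them. A core is held by 21.2% of all promoters and the letters TATAAA on the gene strand by 6.80%, anywhere in the 250 bases. In the NPY, PCSK1N and SCG3 windows none of these letters were found.

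The silencing and the identity of the cells were checked first. SFPQ fell to 50.2% of its siControl level, with 356 to 401 CPM (counts scaled to library size with edgeR's TMM factors) in siControl and 165 to 209 CPM in siPSF, and siPSF replicate 3 had the lowest value. Deposited counts summed to between 101540520 and 132420931 per library. Of 10 noradrenergic neuroblastoma markers, all had reads in each library, and HAND2, GATA2 and DBH were at 875 CPM or more in every library, while TH was under 1 CPM in all of them and SLC18A2 in all but siPSF replicate 3. Summed FPKM (the deposited values, scaled by transcript length and library size) of these markers was 1603 to 1817 in siControl and 1380 to 1550 in siPSF. Without DBH it was 1105 to 1137 and 1042 to 1182 FPKM, with siPSF replicate 3 highest. TH and DBH were called lower (20.0% of the 10 markers) and GATA3 higher (10.0%), against 8.27% and 6.65% of all genes tested. The median log2 fold change of the list was -0.004, and 7 of the 10 markers were below 0. Of 12 mesenchymal and Schwann-like markers, 8 were analysed, and their summed FPKM was 11.7 to 13.0 in siControl and 8.80 to 9.68 in siPSF. Without FN1 the sum was 3.31 to 3.83 FPKM in siControl and 3.64 to 3.87 FPKM in siPSF. FN1 and COL3A1 were called lower among them, with overlap between groups in COL3A1, while SNAI2 (log2 fold change 0.40), COL1A1 (0.55) and S100B (0.61) were above 0 and not called. The other markers of this list were not analysed here. The full sums did not overlap between groups and the sums without DBH or FN1, a choice made after the values were seen, did overlap. The part of these markers in the results below was not tested. In bulk RNA, fewer cells of a kind and less RNA per cell cannot be told apart.

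Compared per length, CHGA was far above the other genes of the list. Its level was 311 ± 42.3 FPKM (SD, n = 3) in siControl and 305 ± 124 FPKM (SD, n = 3) in siPSF, and it stood at rank 169 of the 21301 genes by mean FPKM. In siControl, SCG2 (70.0 ± 4.54 FPKM), PCSK1N (67.2 ± 6.63 FPKM), CHGB (64.4 ± 6.22 FPKM), GAL (63.1 ± 5.90 FPKM) and NPY (60.3 ± 7.53 FPKM) formed a close group, in which each neighbour in the order overlapped the next. SCG3 followed at 32.2 ± 2.41 FPKM, VIP at 5.96 ± 1.21 FPKM and SCG5 at 2.12 ± 0.388 FPKM (SD, n = 3 each), each apart from the one above it. In siPSF NPY left the close group. NPY, at 29.3 ± 7.07 FPKM, overlapped SCG3, at 31.8 ± 2.35 FPKM, and PCSK1N stood second at 81.1 ± 8.39 FPKM. SCG5, the PCSK2 chaperone gene, was thus at a low level in both groups. CHGA alone gave 45.5% to 58.6% of the counts of the 9 genes.

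**Figure D1:**
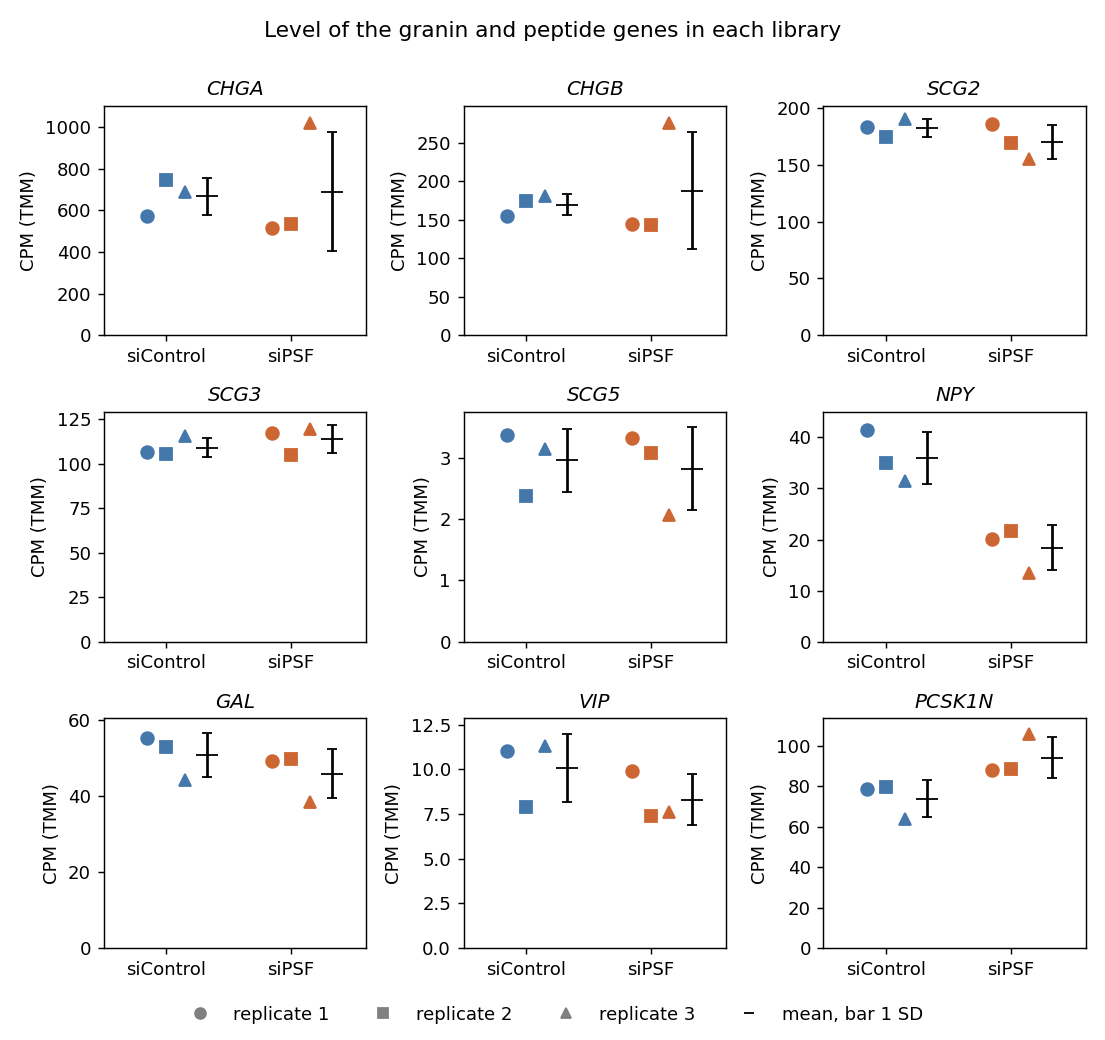
Normalized level of each of the 9 genes in CPM (counts scaled to library size, vertical axes from 0) in the 3 siControl and 3 siPSF libraries, with symbols for the replicate number and the mean with 1 SD beside the points. The groups are apart in NPY and in PCSK1N, and siPSF replicate 3 stands above all other libraries in CHGA and CHGB.

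After siPSF, NPY fell to 51.2% of its siControl level and PCSK1N rose to 127%, and the other 7 genes did not pass the test. In all, 1 of the 9 genes was called lower, against 8.27% of the 19694 genes tested, and 1 was called higher, against 6.65% (edgeR's quasi-likelihood test, adjusted p under 0.05). Each share is 11.1% of 9 genes, a single call. Over all genes 1628 were called lower and 1310 higher, a split that became 2274 and 831 with library totals in place of TMM. In limma, on fewer genes, it was 1700 and 717 of 14830 with FPKM and 3073 and 429 of 14827 with rescaled FPKM. The median log2 fold change of the 9 genes was -0.07, and that of all genes tested was 0.01. The siPSF and siControl libraries did not overlap in 2 of the 9 genes, against 34.4% of all genes, with 1 gene lower (17.8% of all genes) and 1 higher (16.7%).

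NPY encodes neuropeptide Y, a transmitter that sympathetic neurons release together with noradrenaline. NPY (gene ID 4852, GRCh38 chromosome 7 from 24284190 to 24291862) stood at 41.4, 35.1 and 31.4 CPM in siControl replicates 1 to 3 and at 20.1, 21.7 and 13.4 CPM in siPSF replicates 1 to 3. All siPSF values were under all siControl values, and siPSF replicate 3, which also had the least SFPQ, was the lowest. The log2 fold change was -0.96 with a standard error of 0.16 and a 95% interval from -1.32 to -0.61 (edgeR's quasi-likelihood test, adjusted p = 0.0022). NPY held this call in each of the 6 fits that left out one library, with log2 fold changes between -1.10 and -0.78 and adjusted p up to 0.012 (edgeR). It was also the one gene of the list called under each of the alternatives tried.

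Galanin and VIP, the other 2 neuropeptides, are made by sympathetic neurons after injury and by the cholinergic ones, respectively. GAL (gene ID 51083, chromosome 11 from 68684544 to 68691175) was at 55.3, 52.9 and 44.3 CPM in siControl and 49.2, 49.9 and 38.4 CPM in siPSF. Its groups overlapped, and the log2 fold change of -0.15 had a 95% interval from -0.41 to 0.11 (edgeR adjusted p = 0.44). VIP (gene ID 7432, chromosome 6 from 152750797 to 152759760) was at 11.1, 7.89 and 11.3 CPM in siControl and 9.93, 7.37 and 7.62 CPM in siPSF. The groups overlapped here too, with a log2 fold change of -0.28 and a 95% interval from -0.63 to 0.08 (edgeR adjusted p = 0.28). The NPY estimate of -0.96 lies outside both intervals, though the difference between the genes was not tested. Of the summed FPKM of the 3 precursors, NPY made up 45.5% to 48.0% in siControl and 30.1% to 35.4% in siPSF. The sum itself was 118 to 143 FPKM in siControl and 70.5 to 96.8 FPKM in siPSF, without overlap. It includes NPY, so this gap is not separate from the NPY fall, and GAL and VIP each overlapped between groups.

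**Figure D2:**
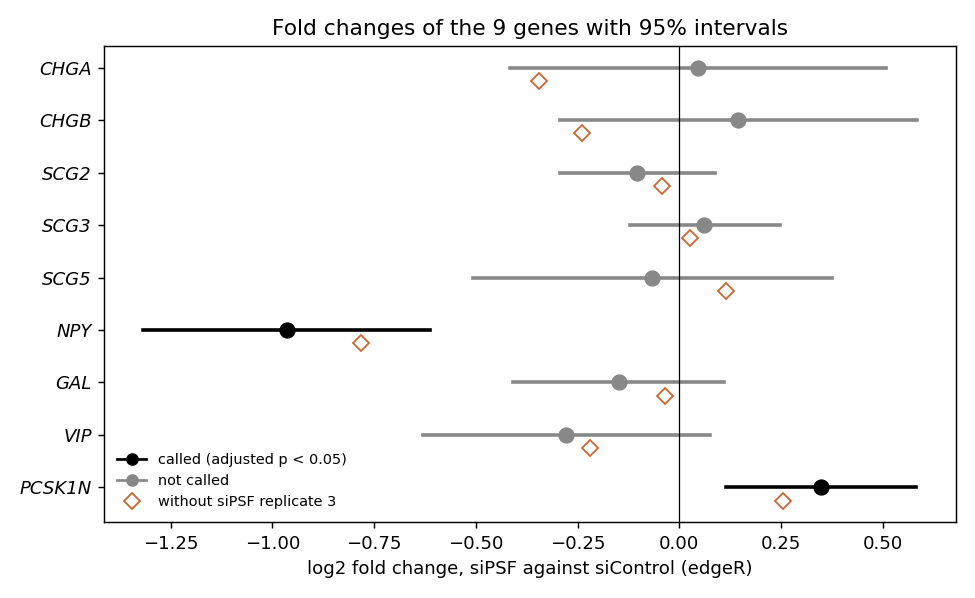
Log2 fold change of each gene after siPSF against siControl (horizontal axis; filled points, with 95% intervals, from edgeR), with black for genes called at an adjusted p under 0.05 and grey for the others. Open diamonds give the estimate without siPSF replicate 3. NPY lies at -0.96 and PCSK1N at 0.35, and the diamonds of CHGA (-0.35), CHGB (-0.24) and SCG5 (0.12) lie on the other side of 0 from their filled points.

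CHGA encodes chromogranin A, the main soluble protein of chromaffin granules and a clinical marker of neuroendocrine tumours. CHGA (gene ID 1113, chromosome 14 from 92922664 to 92935285) was at 571, 745 and 689 CPM in siControl and at 517, 534 and 1019 CPM in siPSF. siPSF replicates 1 and 2 were below every siControl library, and siPSF replicate 3 was above every one. CHGB, the gene of chromogranin B (gene ID 1114, chromosome 20 from 5911510 to 5925353), was at 155, 174 and 181 CPM in siControl and at 145, 143 and 276 CPM in siPSF, with the same split. The fitted log2 fold changes were 0.05 for CHGA (95% interval from -0.42 to 0.51, edgeR adjusted p = 0.91) and 0.15 for CHGB (95% interval from -0.29 to 0.58, edgeR adjusted p = 0.68).

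Both values rested on siPSF replicate 3. Without that library the log2 fold change was -0.35 for CHGA (edgeR adjusted p = 0.048) and -0.24 for CHGB (edgeR adjusted p = 0.097), and 2 genes of the list were called lower in place of 1. Over all genes, 1735 of the 19863 tested were called lower in that fit. The number of genes whose siPSF libraries all lay below the siControl libraries was then 3 (NPY, CHGA and CHGB) in place of 1, a count made after the values were seen. Fewer libraries separate more easily, and the share of all genes was not computed for this reduced set. siPSF replicate 3 stood 1.94-fold above the mean of the other two siPSF libraries in CHGA and 1.92-fold in CHGB, a larger excess than in 99.6% of the 14679 genes averaging 1 CPM or more in both cases. The same library was 0.642-fold of the other two libraries in NPY, 0.643-fold in SCG5 and 0.776-fold in GAL. It was 0.821-fold in SFPQ, so that the library with the least SFPQ also had the most CHGA and CHGB. The part of the depth of silencing in this difference was not tested.

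The ratio of CHGB to CHGA within a library, which needs no scaling between libraries, stayed close. Its log2 value was -1.88, -2.10 and -1.93 in siControl and -1.83, -1.90 and -1.89 in siPSF. The difference of means was 0.10, smaller than the spread within siControl (SD 0.11, n = 3), with an exact two-sided permutation p of 0.30, where the smallest p that 3 against 3 allows is 0.10. Among the 63 genes of this list and the neighbouring lists averaging 1 CPM or more, CHGB was the gene whose profile over the 6 libraries lay nearest to CHGA and the reverse, at a root mean square distance of 0.084 on the log2 scale.

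**Figure D3:**
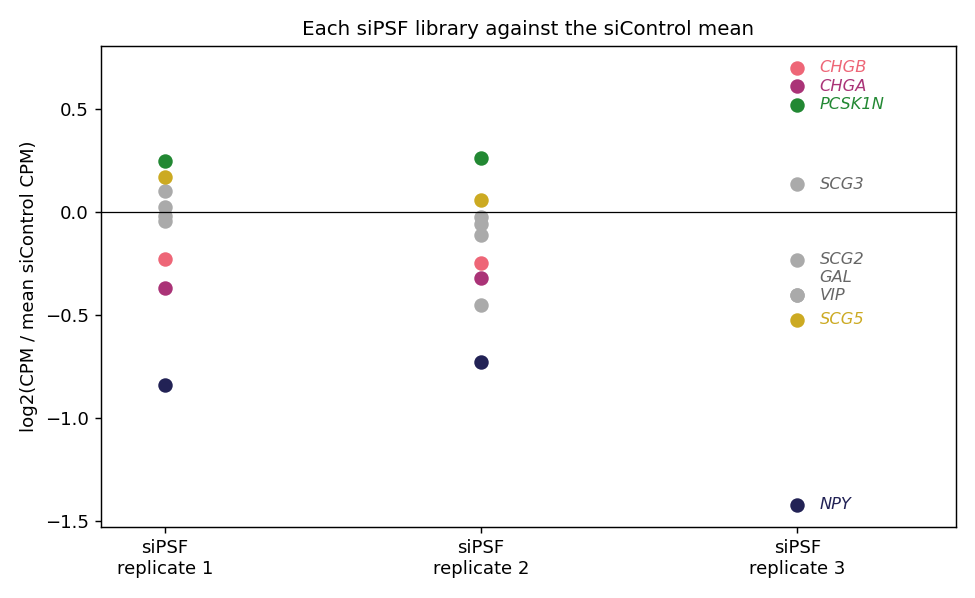
Log2 ratio of the CPM in each siPSF library to the mean CPM of the 3 siControl libraries (vertical axis) for the 9 genes, with gene names at the right. NPY lies lowest in all 3 libraries, and CHGA and CHGB lie below 0 in replicates 1 and 2 and highest in replicate 3.

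SCG2 and SCG3 had the smallest spread between libraries of one group among the 9 genes, with coefficients of variation of 4.30% and 5.09% in siControl and 8.84% and 6.99% in siPSF. SCG2, the precursor of secretoneurin (gene ID 7857, chromosome 2 from 223596940 to 223602361), was at 183, 174 and 190 CPM in siControl and 185, 169 and 155 CPM in siPSF. The 95% interval of its log2 fold change ran from -0.29 to 0.09 around -0.10 (edgeR adjusted p = 0.47). SCG3, whose protein binds CHGA and helps to target it to granules (gene ID 29106, chromosome 15 from 51681503 to 51721026), was at 107, 105 and 116 CPM in siControl and 117, 105 and 120 CPM in siPSF. Its log2 fold change was 0.06, with a 95% interval from -0.12 to 0.25 (edgeR adjusted p = 0.67). Both genes overlapped between groups, and neither interval reached the size of the PCSK1N estimate. siPSF replicate 3, the extreme library for the chromogranins, was 0.876-fold of the other two siPSF libraries in SCG2 and 1.08-fold in SCG3.

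PCSK1N, the proSAAS gene (gene ID 27344, chromosome X from 48831096 to 48835610), was at 78.8, 79.6 and 63.7 CPM in siControl and at 87.9, 88.7 and 106 CPM in siPSF. All siPSF values were above all siControl values. The log2 fold change was 0.35 (standard error 0.11, 95% interval from 0.11 to 0.58, edgeR adjusted p = 0.048), just inside the threshold. The direction was upward in every alternative, but the call was lost in each of the 6 fits that left out one library (edgeR adjusted p from 0.054 to 0.15; log2 fold change 0.25 to 0.40) and with a replicate block (edgeR adjusted p = 0.082).

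PCSK1, the convertase that proSAAS inhibits, was at 0.222 to 0.445 CPM in siControl and 0.172 to 0.312 CPM in siPSF, and its log2 fold change was -0.31 (95% interval from -1.09 to 0.47, edgeR adjusted p = 0.61). The log2 ratio of PCSK1N to PCSK1 counts was 7.87 ± 0.661 in siControl and 8.53 ± 0.634 in siPSF (SD, n = 3 each), a difference that the exact two-sided permutation test did not separate (p = 0.40, where 0.10 is the smallest possible). Per length, PCSK1 was at 0.0591 FPKM in siControl and 0.0442 FPKM in siPSF, far below the 67.2 and 81.1 FPKM of PCSK1N. SCG5 (gene ID 6447, chromosome 15 from 32641710 to 32697092) was at 3.36, 2.38 and 3.14 CPM in siControl and 3.33, 3.08 and 2.06 CPM in siPSF. It overlapped between groups, and its log2 fold change of -0.07 had a wide 95% interval, from -0.51 to 0.38 (edgeR adjusted p = 0.87).

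The other genes of peptide production and secretion were taken from 4 lists of 132 genes in all, of which 80 were tested. Of these 80, 11 were called lower and 6 higher, or 13.8% and 7.5%, against 8.27% and 6.65% of all genes tested. The median log2 fold change of the 80 genes was -0.06. The lower count ran from 6 to 10 when each library in turn was left out, with 6 without siControl replicate 2 and 7 without siControl replicate 3. The higher count ran from 1 to 7, with 2 without siControl replicate 2 and 1 without siControl replicate 3. Calls over all genes were also fewer in those fits than the 1628 lower and 1310 higher of 19694 genes in the main fit. Without siControl replicate 2 there were 928 lower and 572 higher of 19907 genes. Without siControl replicate 3 there were 1022 and 732 of 19889 genes. Genes of 100 kb or more made up 17 of the 80, with 5 called lower and 0 higher, and shorter ones 63, with 6 called lower and 6 higher. Over all genes tested that had a known length, 25.2% of the 3007 of 100 kb or more and 5.08% of the 16273 shorter ones were called lower. The shares called higher were 2.76% and 7.3%. All 9 genes of the main list are under 100 kb, between 4.51 kb (PCSK1N) and 55.4 kb (SCG5). The part of gene length in the counts was not tested.

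Among 13 enzymes of precursor processing that were tested, 2 were called lower (15.4%) and 0 higher, against 8.27% and 6.65% of all genes tested. CPE was at 41.1, 40.6 and 45.1 CPM in siControl and 34.8, 32.8 and 24.7 CPM in siPSF, and its log2 fold change was -0.46 (edgeR adjusted p = 0.026). PCSK6, a constitutively secreted convertase, was at 6.88 to 8.22 CPM in siControl and 5.25 to 5.74 CPM in siPSF, and its log2 fold change was -0.46 (edgeR adjusted p = 0.026). Neither group pair overlapped, but CPE was called in 4 and PCSK6 in 3 of the 6 fits that left out one library. PAM was lower in every siPSF library (36.8 to 39.8 CPM) than in every siControl library (42.0 to 49.4 CPM) but did not pass the test, and its log2 fold change was -0.23 (edgeR adjusted p = 0.12). MBTPS1, the gene of the site-1 protease, went the other way, with 120 to 134 CPM in siControl and 141 to 163 CPM in siPSF and a log2 fold change of 0.27 that also missed the threshold (edgeR adjusted p = 0.054). CPE is 120 kb, PCSK6 186 kb and PAM 276 kb long.

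Among 21 other peptide precursors tested, 2 were called lower and 2 higher, or 9.52% each, against 8.27% and 6.65% of all genes tested. VGF, a granin-like protein that is induced by neurotrophins and cut into several active peptides, fell. In siControl it had the highest level per length among the precursors analysed (422 ± 44.2 FPKM, SD, n = 3), above CHGA. In siPSF VGF averaged 283.5 FPKM, under the 304.7 FPKM of CHGA, with overlap between the genes. It was at 1285, 1192 and 1001 CPM in siControl and 869, 904 and 686 CPM in siPSF, without overlap. Its log2 fold change was -0.50 (standard error 0.12, edgeR adjusted p = 0.017), and 4 of the 6 fits that left out one library kept the call. As in NPY, siPSF replicate 3 was the lowest library. UCN, the gene of the stress peptide urocortin, rose from 5.58 ± 0.802 to 8.31 ± 0.0413 CPM (SD, n = 3 each), and its log2 fold change was 0.57 (edgeR adjusted p = 0.012). Its call was kept in 4 of the 6 fits without one library. The other 2 calls were in genes under 1 CPM on average, PTHLH (-1.16) and NPB (1.64). CALCB, the gene of beta-CGRP, was at 17.6 to 23.6 CPM in siControl and 14.6 to 15.7 CPM in siPSF, with a log2 fold change of -0.37 that missed the threshold (edgeR adjusted p = 0.062).

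**Figure D4:**
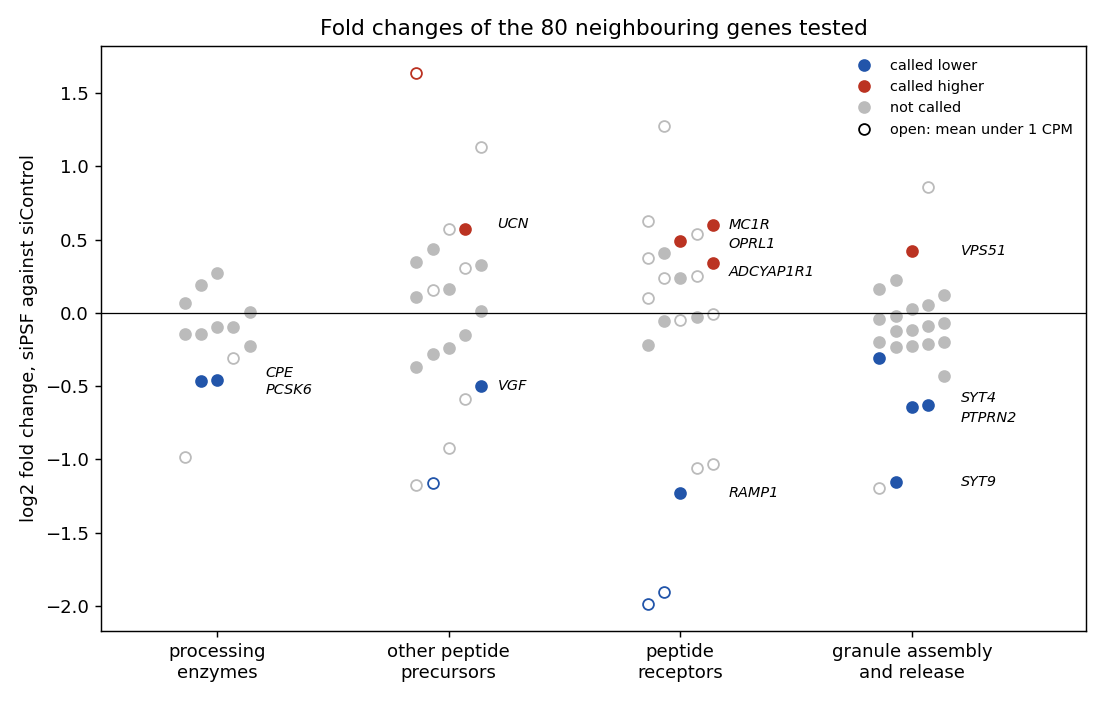
Log2 fold change after siPSF against siControl (vertical axis) of the 80 tested genes of the 4 neighbouring lists, with blue for genes called lower, red for genes called higher, grey for genes not called and open symbols for genes with a mean under 1 CPM. Called genes of at least 1 CPM are named, up to 3 per direction and list. RAMP1 at -1.23 and SYT9 at -1.15 are the lowest named points, and MC1R at 0.60 is the highest.

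Among 22 peptide receptor genes tested, 3 were called lower and 3 higher, or 13.6% each, against 8.27% and 6.65% of all genes tested. RAMP1, the accessory subunit that turns the receptor encoded by CALCRL into a receptor for CGRP, was at 22.6, 27.5 and 20.3 CPM in siControl and 9.84, 10.1 and 10.1 CPM in siPSF. The siPSF libraries were close together and far below the siControl ones, and the log2 fold change was -1.23 (standard error 0.12, edgeR adjusted p = 8.5e-05), a call that each of the 6 fits without one library kept. CALCRL itself was at 0.337 to 0.651 CPM in siControl and 0.168 to 0.294 CPM in siPSF. It was not called (log2 fold change -1.03, edgeR adjusted p = 0.063). The other 2 lower calls, in the oxytocin receptor gene OXTR (-1.91) and the bombesin receptor gene GRPR (-1.99), were in genes under 1 CPM on average. MC1R, a melanocortin receptor, rose by a log2 fold change of 0.60, OPRL1, the nociceptin receptor, by 0.49 and ADCYAP1R1, the PACAP receptor, by 0.34 (edgeR adjusted p = 0.016, 0.042 and 0.039). MC1R kept its call in 4 of the 6 fits that left out one library, and OPRL1 and ADCYAP1R1 kept theirs in 1. Of the receptors for NPY, galanin and VIP, 4 were analysed and all were under 1 CPM in every library. NPY2R was at 0.659 to 0.986 CPM in all libraries, VIPR1 at 0.15 to 0.539 CPM, VIPR2 at 0.0986 to 0.467 CPM and GALR2 at 0.0926 to 0.183 CPM.

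Among 24 genes of granule assembly and release, 4 were called lower and 1 higher. The shares were 16.7% and 4.17%, against 8.27% and 6.65% of all genes tested. PTPRN2, a phosphatase-like protein of the granule membrane, was at 64.4, 60.8 and 59.1 CPM in siControl and 42.1, 41.9 and 34.2 CPM in siPSF, and its log2 fold change was -0.64 (edgeR adjusted p = 0.0014). Its close relative PTPRN overlapped between groups (244 to 287 and 235 to 252 CPM), and its log2 fold change was -0.09 (edgeR adjusted p = 0.52). PTPRN2 is 1049 kb long and PTPRN 19.8 kb. Of the synaptotagmins, vesicle proteins of which many sense calcium, SYT4 had a log2 fold change of -0.63 and SYT9 of -1.15 (edgeR adjusted p = 0.0049 and 0.0019), while SYT7 was at 0.03 (edgeR adjusted p = 0.90). The calls of PTPRN2, SYT4 and SYT9 were kept in each of the 6 fits without one library. Among the tethering complex subunits, VPS51 rose by 0.42 and VPS53 fell by 0.31 on the log2 scale (edgeR adjusted p = 0.024 and 0.029), with VPS52 at -0.22 and VPS54 at -0.04 not called. The call was kept in 4 of those 6 fits for VPS51 and in 1 for VPS53.

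Over the 6 libraries, the profile of NPY lay nearest to that of SYT9 within the 63 genes compared (distance 0.22) and that of PCSK1N nearest to that of VPS51 (distance 0.045). For SCG2, SCG3 and GAL the nearest genes were CTSL, VPS54 and VPS52 at distances of 0.082, 0.079 and 0.082. The nearest genes to SCG5 and VIP were CALCA and NUCB2, at the larger distances of 0.19 and 0.16. These distances describe 6 libraries in 2 groups.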

How the data were processed

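RNA-seq libraries of SH-SY5Y cells, 3 treated with siControl and 3 with siPSF, were analysed. Groups and replicate numbers came from the sample titles. The authors deposited 1 table of 21301 genes with raw read counts and FPKM values per library. Per the paper's methods, poly(A) RNA was sequenced as paired-end reads, rRNA reads were removed with Bowtie 2, the rest were mapped to hg38 with TopHat and counted on RefSeq; the submitters' processing notes instead list Trimmomatic, HISAT2 2.1.0 and StringTie 2.1.3b with GRCh38. The deposited FPKM values are called RPKM in the methods. The smallest count was 1, and genes without a read in some library were not analysed here. Whether strand was used in counting is not given in the sources used here.

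The counts were filtered with edgeR's filterByExpr (19694 genes left), scaled by TMM and fitted with no replicate block by the quasi-likelihood method of edgeR 4.0.16 in R 4.3.3. DESeq2 1.42.0 and limma 3.58.1 served for alternatives and Python 3.11.15 for summaries. Adjusted p-values are Benjamini-Hochberg values over all genes tested, and a gene was called under 0.05. Standard errors were taken from the log2 fold change and the F statistic, and 95% intervals from the total degrees of freedom. The fit was tested on simulated data. The members and lists were chosen with earlier results of these data known. Named were all members, SFPQ, PCSK1, CPE, PAM, VGF, up to 3 called genes of smallest p per list and direction averaging 1 CPM or more, and for each member the nearest profile; other genes were chosen after their values were seen. The alternatives were leaving out each library, a replicate block, DESeq2's size factors, library totals, no filter, DESeq2's Wald test and limma on log2(FPKM + 0.5) for genes with a mean of at least 0.5 FPKM, with and without rescaling to one sum per library.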

Additional observations from a re-analysis of the deposited data

How the results depend on the processing

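NPY kept its direction and its call under all 13 alternatives (log2 fold change -1.17 to -0.78), and SCG2, GAL and VIP kept their direction and stayed uncalled. PCSK1N stayed positive under all 13 but lost its call with a replicate block (0.35), library totals (0.27), no filter (0.34), limma on FPKM (0.27) and limma on rescaled FPKM (0.16), and when any library was left out (0.25 to 0.40); the number of genes called higher was then 0 in each of these settings. With one library left out, the log2 fold changes ran from -0.35 to 0.22 for CHGA, from -0.24 to 0.31 for CHGB and from -0.21 to 0.12 for SCG5, with the sign turned without siPSF replicate 3 for CHGA (-0.35), CHGB (-0.24) and SCG5 (0.12) and without siControl replicate 1 for CHGA (-0.06) and SCG5 (0.04), and 1 to 2 genes were called lower. The sign of CHGA also turned with a replicate block (-0.021), library totals (-0.033), limma on FPKM (-0.092) and limma on rescaled FPKM (-0.21), that of CHGB with limma on FPKM (-0.001) and rescaled FPKM (-0.12), and that of SCG3 with library totals (-0.017), limma on FPKM (-0.016) and rescaled FPKM (-0.13). The median over genes tested was 0.01 with TMM and -0.07 with library totals (19694 genes each), -0.06 with limma on FPKM (14830 genes) and -0.16 with limma on rescaled FPKM (14827 genes). Of the neighbouring genes, 18 were called lower and 3 higher with limma on rescaled FPKM, and 3 higher with limma on FPKM. These limma fits held only genes with a mean of at least 0.5 FPKM, so not all 80 neighbouring genes were in them. With one library left out, 6 to 10 were called lower and 1 to 7 higher. Library totals called 2274 genes lower and 831 higher against 1628 and 1310 with TMM, and limma called 1700 and 717 on FPKM and 3073 and 429 on rescaled FPKM. Without siControl replicate 2 there were 928 and 572, and without siControl replicate 3 there were 1022 and 732. In the siControl level order, 4 to 9 of the 9 places were kept with one library left out, 4 without siControl replicate 3. Without siPSF replicate 3, 3 genes in place of 1 lay wholly below siControl, a count for which the share over all genes was not computed. The replicate numbers showed no clear pairing of the libraries: deviations of same-numbered libraries correlated at -0.02, 0.06 and 0.06 over genes. siControl replicate 1 correlated best with siPSF replicate 2 (0.0712). siControl replicate 3 correlated slightly better with siPSF replicate 1 (0.0585) than with siPSF replicate 3 (0.0559). Correlations this near 0 cannot show whether the libraries were prepared in pairs. The block called 1640 genes lower and 1389 higher and changed no other call of the list. The causes were not tested. The ratio of SCG5 to PCSK2 was not computed, since PCSK2 was not analysed here.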

Other observations

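Among all 14679 genes averaging 1 CPM or more, a comparison chosen after the values were seen, the profiles nearest to CHGA over the 6 libraries were those of DNAH7, an axonemal dynein gene (distance 0.061 on the log2 scale), FUT1, a fucosyltransferase gene (0.080), and CHGB (0.084). FUT1 was at 21.7, 24.7 and 22.1 CPM in siControl and 18.4, 18.6 and 34.2 CPM in siPSF, so its siPSF replicate 3 also stood above every other library. RRAGD, a GTPase gene of lysosomal nutrient sensing, came next among the protein-coding genes, with 13.4, 13.4 and 23.9 CPM in siPSF.

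The protein-coding genes nearest to NPY were THBS1, FBXL7 and CACNA1C, at distances of 0.083, 0.084 and 0.097. CACNA1C, which encodes the pore of an L-type calcium channel, was at 15.9, 15.0 and 14.5 CPM in siControl and 9.08, 9.46 and 5.31 CPM in siPSF, and as in NPY the lowest library was siPSF replicate 3.

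DBH, the enzyme that makes noradrenaline and is stored in the same granules, fell from 1738 ± 285 to 1085 ± 77.3 CPM (SD, n = 3 each), and its log2 fold change was -0.68 (edgeR adjusted p = 0.0024). Its siPSF replicate 3 was at 1151 CPM, close to the other two siPSF libraries.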
